A study of Mus musculus with 24 samples.

Results

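Small leucine-rich proteoglycans are secreted matrix proteins, and 9 of their genes were followed here in mouse pancreatic stellate cells (PSC): decorin (Dcn), biglycan (Bgn), lumican (Lum), fibromodulin (Fmod), osteoglycin (Ogn), asporin (Aspn), Prelp (proline and arginine rich), podocan (Podn) and osteomodulin (Omd). The members were chosen by name, with earlier results of these data known, and all 9 were found among the 53801 genes listed. PSC were wild-type and came from pooled pancreata of young adult C57BL/6J mice of both sexes. RNA was sequenced from 8 groups of 3 libraries, taken 24 h and 72 h after the start of co-culture or of control culture without cancer cells. The cancer cells were KPC cells, 1 line of pancreatic cancer cells from a female mouse that carries p48-Cre, which acts in the pancreas. In standard co-culture KPC cells grew on the bottom of the well, away from the PSC on a porous membrane, which the labels call distant paracrine. In inverse co-culture KPC cells grew on the underside of the same membrane, which the labels call close paracrine, and each model had its own controls. The model cannot be told apart from the RNA used per library, which was 450 ng in the standard and 120 ng in the inverse model. Nor can it be told apart from the medium during seeding. Per the study's methods, standard PSC were seeded in a low-glucose medium and changed to that of the experiment at its start. Inverse PSC and their controls were in the latter from seeding on. Inverse co-cultured PSC had also shared the membrane with KPC cells for the day between their seeding and the start of the experiment. All levels are FPKM, fragments scaled to transcript length and to the fragments mapped in a library.

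These proteins consist of a core of leucine-rich repeats that holds on to collagen fibrils, and many of them carry sulfated sugar chains. They are known for setting the thickness and spacing of collagen fibrils and for binding growth factors such as TGF-beta in the matrix. Dcn and Bgn carry chondroitin or dermatan sulfate chains, whereas Lum, Fmod and Omd can carry keratan sulfate or sulfated tyrosines. PSC are a source of the fibrous stroma of pancreatic cancer, and Dcn and Lum are widely used as fibroblast transcripts.

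The fragment totals that scale the FPKM values, inferred from those values, were between 15932733 and 24798760 a library. Stellate cell and fibroblast markers were present: 9 of the 10 on the list had an FPKM above 1 in every library, and the exception was Gfap, at or below 0.237. The study reports its PSC as positive for GFAP protein by staining. Endothelial markers summed to at most 2.95, acinar markers to at most 20.1 and mesothelial markers to at most 45.2. Macrophage and leukocyte markers were not low throughout, with sums between 25.9 and 1328 FPKM, the highest in the 72 h standard controls. Adipocyte markers summed to between 37.5 and 963 FPKM, the highest in the 72 h inverse controls. The 8 epithelial markers summed to between 1.19 and 6.71 in controls, and in co-cultures to between 2.00 and 45.7. The highest sum belonged to replicate 2 of the 24 h inverse co-culture, where the keratin Krt8 reached 15.2. Replicate 1 of the standard model stood apart from replicates 2 and 3 in all 4 groups, and results of that model are therefore given with and without it. Its Acta2 level, the smooth muscle actin of activated stellate cells, was 1.43 to 6.62 times the mean of the other replicates, and its Lyz2 level, a macrophage transcript, was 0.0572 to 0.188 times that mean.

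Bgn was the most abundant member in every library, with 4242 to 5689 FPKM. It ranked between the 5th and the 8th highest of all transcripts and made up 68.4% to 87.6% of the summed FPKM of the 9 members. Its highest value was 1.34 times its lowest, the narrowest range of the family. Dcn followed with a median of 509 FPKM (145 to 1269) and Prelp with 369 (252 to 692). Dcn exceeded Prelp in 19 of 24 libraries, so their order was not the same in all libraries. Ogn had a median of 115 FPKM (17.8 to 285), Fmod of 68.9 (26.3 to 103) and Lum of 46.6 (11.3 to 106). Podn had a median of 35.7 FPKM (9.22 to 82.0) and Aspn of 16.8 (2.57 to 39.1). Lum exceeded Podn in 14 of 24 libraries, which leaves the order of that pair open to the spread between libraries. Omd stayed between 0.0918 and 0.862 FPKM, from 4 to 31 fragments a library, and was not tested because it never passed an FPKM of 1. Its groups overlapped in the inverse model at both times, with 0.546, 0.658 and 0.418 FPKM in the 72 h controls and 0.525, 0.272 and 0.394 in the co-cultures. At 24 h in the standard model it was at 0.231, 0.419 and 0.585 FPKM in controls and at 0.112, 0.158 and 0.103 in co-cultures. FPKM comparisons between members depend on the transcript length used, here the mean over the annotated transcripts of a gene, which number 8 for Bgn and for Podn and 1 for Lum and Ogn.

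**Figure D1:**
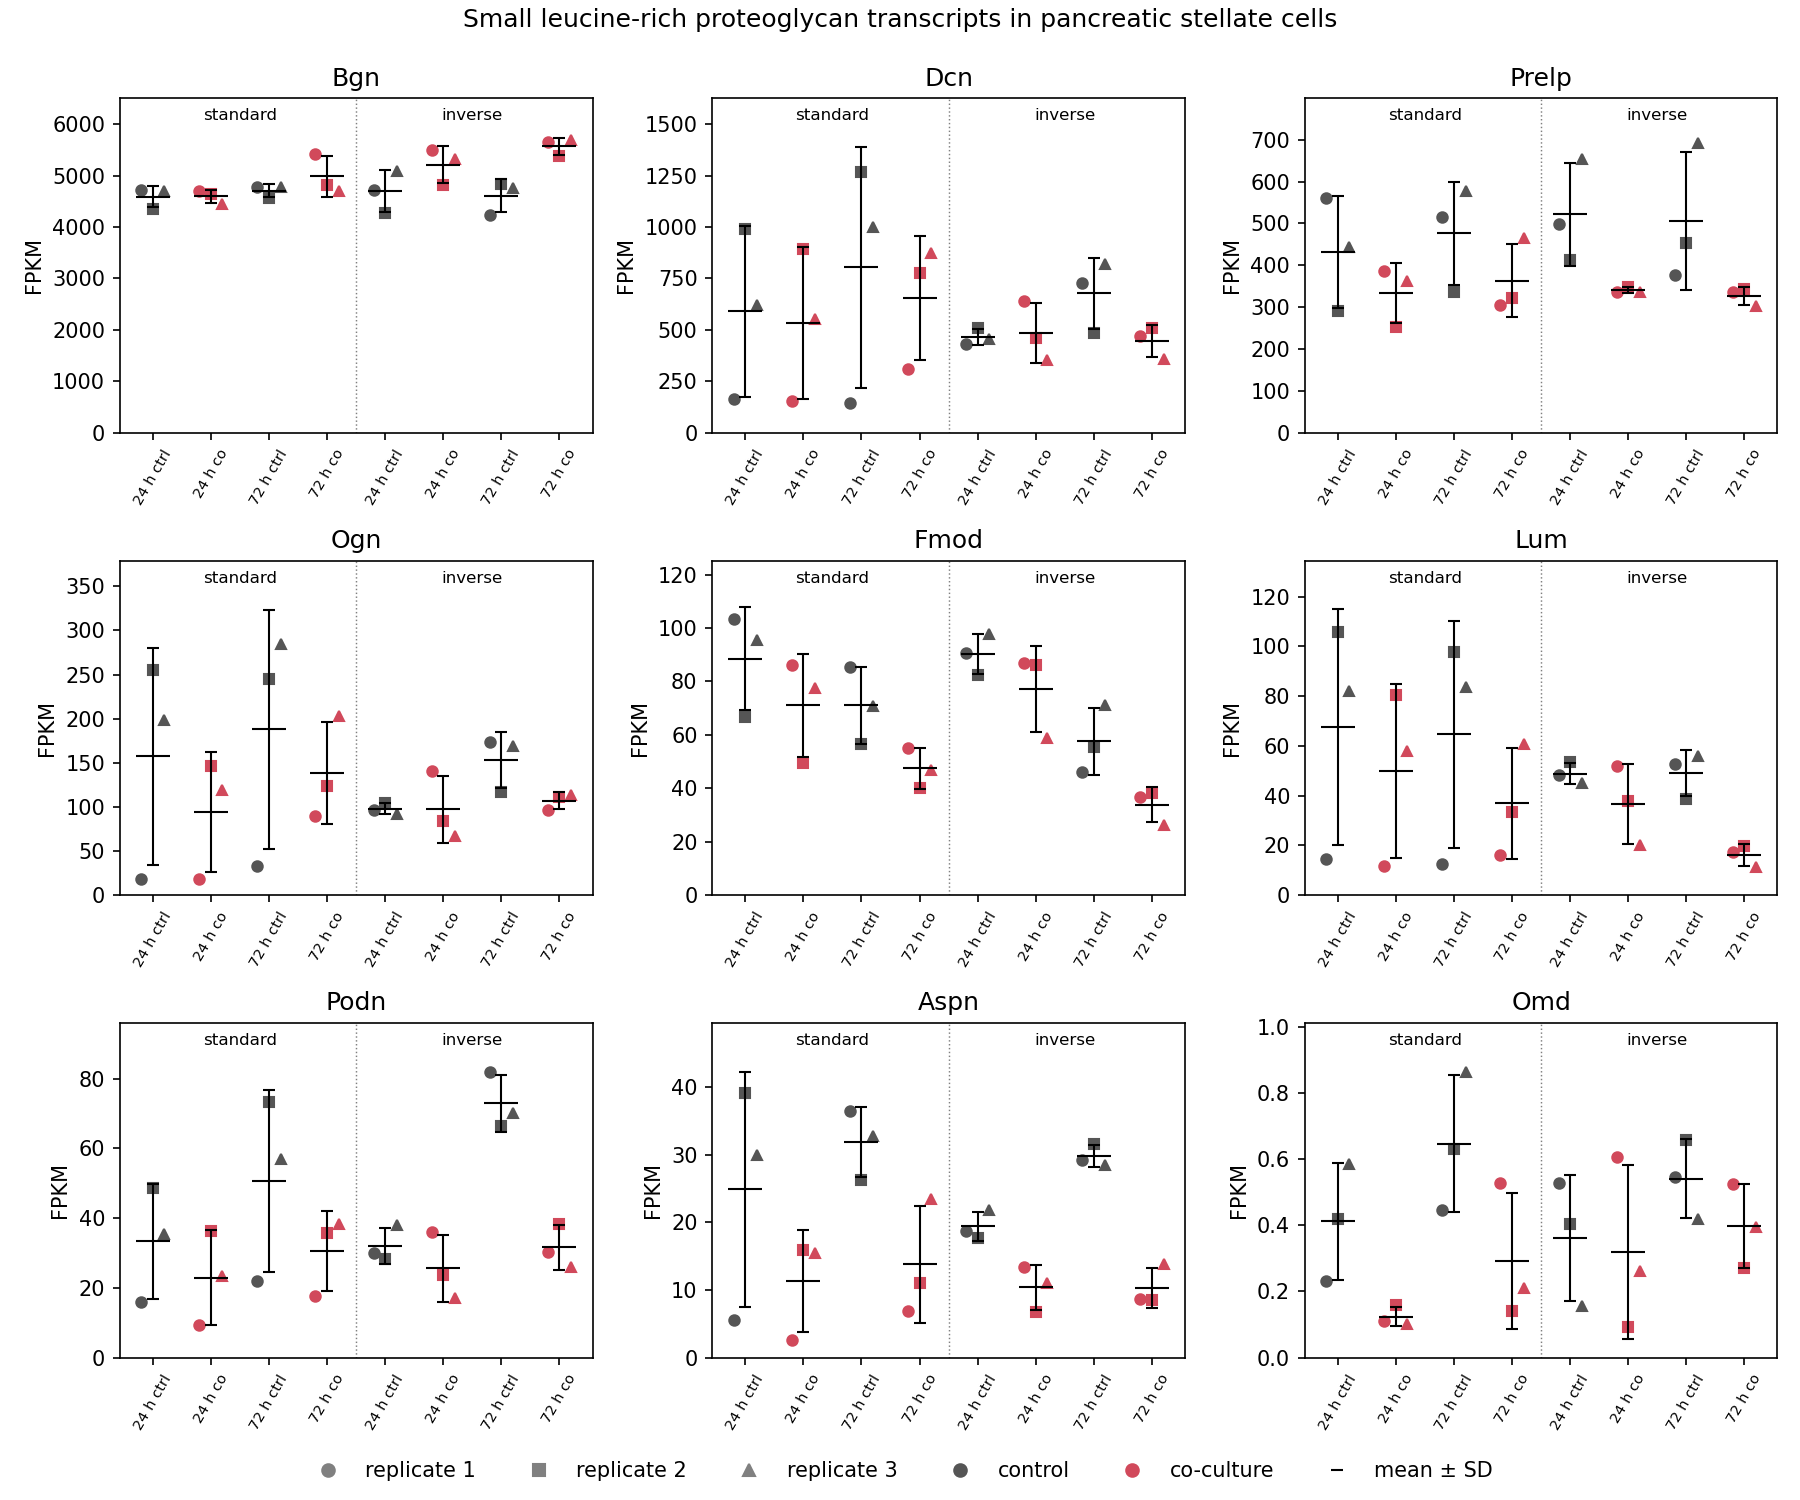
FPKM (y axis, linear, from 0) of the 9 members in the 8 groups (x axis, ctrl for control and co for co-culture, standard model left and inverse model right of the dotted line). Symbols are the 3 replicates and black bars the mean ± SD; Dcn, Lum, Ogn and Podn were lowest in replicate 1 of all 4 standard groups, and Lum, Podn and Aspn of the 72 h inverse co-culture lay below all 3 of their controls.

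Most members sit beside relatives in the mouse genome (GRCm38). Dcn (chr10:97479609-97518143) and Lum (chr10:97565128-97572703) are neighbours 46984 bp apart on the plus strand. Aspn (chr13:49544443-49567565), Omd (chr13:49582462-49592822) and Ogn (chr13:49608046-49624501) follow each other on the plus strand, with gaps of 14896 and 15223 bp and their relative Ecm2 11653 bp before Aspn. Prelp (chr1:133910304-133921414, minus strand) and Fmod (chr1:134037254-134048277, plus strand) are 115839 bp apart. Podn lies alone on chromosome 4 (chr4:108014791-108096445, minus strand) and Bgn on the X chromosome (chrX:73483602-73495933, plus strand). Fragments were counted without strand, and 9.68% of the exonic bases of Prelp and 0.297% of those of Aspn are shared with a gene on the other strand, so these bases cannot be assigned to one gene.

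The 250 bases before the start are shown for Aspn, Podn and Fmod, 3 of the 4 transcripts that fell in the 72 h inverse co-culture described below, and for Bgn, which did not. They are RefSeq sequences of GRCm38.p6, read 5′ to 3′ on the gene's strand, for 7 of the 9 members with an entry (not Dcn and Lum). Capitals mark matches on either strand to 6 motifs: the TATA box TATAAA, the CCAAT box CCAAT, the GC box GGGCGG, AP-1 TGANTCA, TEAD GGAATG and the SMAD site CAGAC. Podn has 2 annotated starts, and the window of the downstream one is printed because the other overlaps a Podn exon.
Aspn, chr13:49544193-49544442, plus strand: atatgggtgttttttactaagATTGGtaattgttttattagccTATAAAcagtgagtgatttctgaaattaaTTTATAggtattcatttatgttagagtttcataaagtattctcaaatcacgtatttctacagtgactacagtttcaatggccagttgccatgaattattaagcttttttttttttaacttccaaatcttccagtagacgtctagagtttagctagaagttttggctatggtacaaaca
Podn, chr4:108030987-108031236, minus strand: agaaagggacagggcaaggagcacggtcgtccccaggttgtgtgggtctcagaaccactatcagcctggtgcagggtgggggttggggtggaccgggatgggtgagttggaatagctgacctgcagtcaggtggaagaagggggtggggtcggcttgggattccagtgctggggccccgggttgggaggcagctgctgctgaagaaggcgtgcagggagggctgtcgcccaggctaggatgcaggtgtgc
Fmod, chr1:134037004-134037253, plus strand: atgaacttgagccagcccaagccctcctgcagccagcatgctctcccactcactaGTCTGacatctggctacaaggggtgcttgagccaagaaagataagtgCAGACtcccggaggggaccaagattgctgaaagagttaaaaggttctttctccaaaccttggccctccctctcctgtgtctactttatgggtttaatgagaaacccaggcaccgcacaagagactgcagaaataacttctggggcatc
Bgn, chrX:73483351-73483600, plus strand: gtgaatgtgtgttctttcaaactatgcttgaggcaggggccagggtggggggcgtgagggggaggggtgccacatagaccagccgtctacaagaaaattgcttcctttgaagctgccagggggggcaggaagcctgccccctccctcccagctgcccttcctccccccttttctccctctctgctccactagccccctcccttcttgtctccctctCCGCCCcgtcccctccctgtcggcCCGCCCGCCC
The windows differ widely in base composition. G and C made up 30% of the Aspn window, a share below which only 1.47% of 32851 mouse promoter windows of this length fall, against 51.2% for Fmod, 64% for the printed Podn window and 64.4% for Bgn. Aspn held 2 TATA box matches and 1 CCAAT box match, Fmod 2 SMAD sites, Bgn 3 GC boxes of which the last pair overlap, and the printed Podn window none, while the other Podn window held 2 GC boxes. Of all windows, 12.4% held TATAAA, 33.8% CCAAT, 32.7% GGGCGG, 6.75% TGANTCA, 12.6% GGAATG and 42.2% CAGAC.

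Between co-cultured PSC and their controls, members were called in the inverse model at 72 h. Lum, Aspn, Podn and Fmod fell, by factors between 1.69 and 3.01, whereas Dcn, Ogn, Prelp and Bgn did not pass the test. Values were compared with limma, a linear model with moderated variances, on log2(FPKM + 0.5) with Benjamini-Hochberg adjustment over all genes tested. Of the 8 members tested, 4 were called lower and 0 higher, while 9.57% of all 13066 genes tested were called lower, 3.27% higher and 12.8% in either direction. The median log2 fold change was -0.67 over the 8 members and -0.16 over all genes. With scaling by median ratios, which brought the median of all genes to -0.02, Lum, Aspn and Podn were still called and Fmod was not (adjusted p = 0.0922). That scaling also changed the background, from 427 genes higher and 1251 lower to 704 higher and 697 lower.

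Lum, which organises collagen fibrils in cornea, skin and other connective tissue, was at 52.6, 38.5 and 56.1 FPKM in the 72 h inverse controls and at 17.5, 19.7 and 11.3 in the co-cultures. All 3 co-cultures lay below all 3 controls. The means were 49.1 ± 9.35 and 16.2 ± 4.35 FPKM (SD, n = 3), a 3.01-fold lower level on the log2(FPKM + 0.5) scale (log2 fold change -1.59, SE 0.23, limma adjusted p = 0.00774). Aspn, which binds collagen and TGF-beta and carries no sugar chain of this kind, was at 29.2, 31.6 and 28.5 FPKM in controls and at 8.68, 8.49 and 13.8 in co-cultures. Its groups did not overlap either, and its adjusted p was the lowest of the family (log2 fold change -1.52, SE 0.19, limma adjusted p = 0.00592). Podn, a matrix protein first described in glomeruli, was at 82.0, 66.5 and 70.1 FPKM in controls and at 30.4, 38.5 and 25.9 in co-cultures. Every co-culture was again below every control (log2 fold change -1.21, SE 0.16, limma adjusted p = 0.00667). Lum, Aspn and Podn were called whichever of the 6 libraries was left out.

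Fmod, which competes with Lum for a site on collagen I, was at 46.1, 55.6 and 71.1 FPKM in the 72 h inverse controls and at 36.8, 38.4 and 26.3 in the co-cultures. The groups did not overlap, but its call was close to the limit (log2 fold change -0.76, SE 0.20, limma adjusted p = 0.0446) and was kept only without co-culture replicate 2 when each library was left out in turn. Without any of the other libraries the adjusted p was between 0.0607 and 0.142. All 4 calls were lost when all 24 libraries shared 1 estimate of the spread, with adjusted p between 0.0582 for Fmod and 0.219 for Lum. That estimate includes the standard model, in which replicate 1 stood apart in different directions. It was at 0.138 to 0.347 times the mean of the other replicates for Lum and at 0.309 to 0.473 for Podn. For Aspn it was at 0.162 to 1.23 times that mean and for Fmod at 1.27 to 1.36. Its part in the loss of the calls was not tested.

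The other 4 members did not pass the test. Dcn, which binds collagen, TGF-beta and the receptors EGFR and MET, was at 729, 484 and 821 FPKM in the 72 h inverse controls and at 469, 507 and 356 in the co-cultures, with overlap through control replicate 2. Its log2 fold change was -0.59 (95% interval -1.10 to -0.08, limma adjusted p = 0.112). Ogn was at 174, 116 and 169 FPKM in controls and at 96.3, 111 and 113 in co-cultures (log2 fold change -0.49, SE 0.17, limma adjusted p = 0.0859). Without control replicate 2, Dcn (adjusted p = 0.0458) and Ogn (adjusted p = 0.026) were also called. Prelp, a basic member that ties basement membranes to the underlying collagen, was at 376, 453 and 692 FPKM in controls and at 335, 344 and 302 in co-cultures (log2 fold change -0.58, SE 0.21, limma adjusted p = 0.104). Bgn was at 4242, 4837 and 4753 FPKM in controls and at 5645, 5386 and 5689 in co-cultures, the only member tested with a value above 0 (log2 fold change 0.28, SE 0.16, limma adjusted p = 0.281). Counted by overlap alone, 6 of the 8 members lay wholly below their controls and Bgn wholly above, against 28.8% and 9.53% of all genes tested.

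Markers of other cell types moved in the same libraries. The 7 adipocyte markers summed to between 465 and 963 FPKM in the 72 h inverse controls and to between 37.5 and 132 in the co-cultures, with 6 of 7 above an FPKM of 1 in all controls and none at 0 throughout either group. The 9 macrophage and leukocyte markers summed to between 128 and 251 FPKM in controls and to between 55.1 and 84.1 in co-cultures. The 10 stellate cell and fibroblast markers, which include collagen I, summed to between 21088 and 27445 FPKM in controls and to between 29331 and 34963 in co-cultures. Their part in the member differences was not tested. In bulk RNA, fewer cells of a type and less RNA per cell cannot be told apart.

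**Figure D2:**
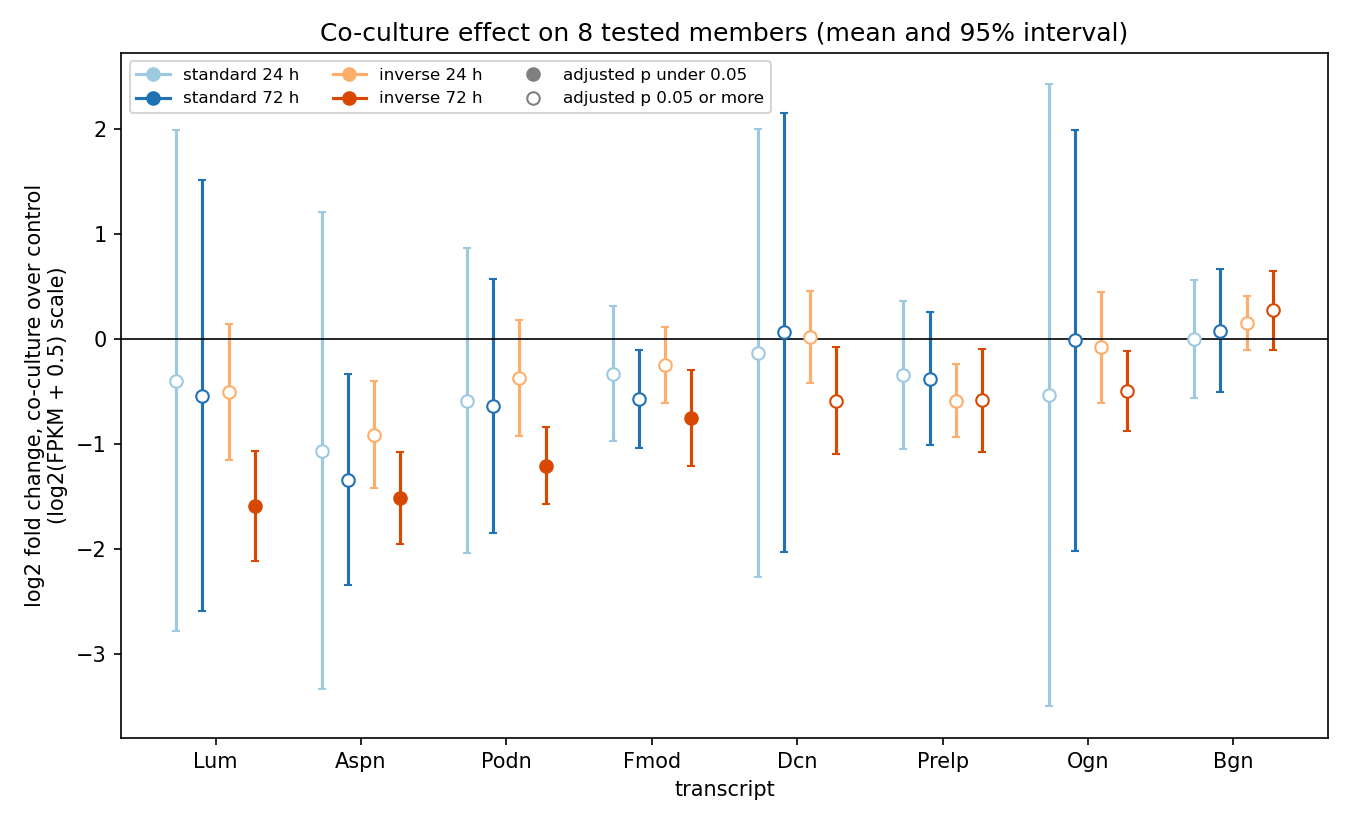
Log2 fold change of co-culture over control (y axis, log2(FPKM + 0.5) scale) for the 8 members tested (x axis) in the 4 comparisons, with 95% intervals of 3 libraries against 3. Filled symbols passed an adjusted p of 0.05 and are limited to Lum, Aspn, Podn and Fmod at 72 h in the inverse model. At 72 h the interval of Aspn is wider in the standard than in the inverse model, whereas the SEs of Fmod are close.

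At 24 h of inverse co-culture 0 of 8 members were called by limma, while 2.47% of 12827 genes were, 1.08% higher and 1.39% lower. Aspn and Prelp had an unadjusted p under 0.05, which is 2 of 8 members and 14.8% of all genes tested. Aspn was at 18.7, 17.7 and 21.8 FPKM in controls and at 13.4, 6.81 and 11.1 in co-cultures (log2 fold change -0.91, SE 0.22, limma adjusted p = 0.0827). Prelp was at 499, 412 and 653 FPKM in controls and at 336, 348 and 337 in co-cultures (log2 fold change -0.59, SE 0.15, limma adjusted p = 0.0981). In both transcripts all co-cultures were below all controls, which held for 13.8% of all genes tested. Median-ratio scaling moved the background from 139 genes higher and 178 lower to 178 higher and 145 lower and called no member. The voom method on fragments recovered from the FPKM values called both (adjusted p = 0.0233 for Aspn and 0.0364 for Prelp), together with 3.99% of 11714 genes. The lowest Aspn value was that of the library with the keratin signal, and without it the log2 fold change of Aspn was -0.65 (adjusted p = 0.143). The adjusted p also rose without any 1 of the controls, to between 0.198 and 0.292, at log2 fold changes between -0.97 and -0.83. The other 6 members had log2 fold changes between -0.51 for Lum and 0.15 for Bgn, and their groups overlapped.

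The difference between the co-culture effect at 72 h and at 24 h in the inverse model was tested over its 12 libraries, and 0 of 8 members passed, as did 0 of 13722 genes. Lum (difference -1.08, SE 0.41, limma adjusted p = 0.397) and Podn (difference -0.84, SE 0.32, limma adjusted p = 0.402) were the 2 members with an unadjusted p under 0.05, as had 10.7% of all genes. The voom method called 0 members and 14 genes in all. The time course of the effect was thus not resolved for any member.

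In standard co-culture 0 of 8 members were called by limma at 24 h or at 72 h, by voom or without replicate 1, and 0 of all 12859 and 12863 genes were. Unadjusted p-values under 0.05 were found for 0 members at 24 h (2.89% of all genes) and for 2 of 8 at 72 h (6.22% of all genes), Aspn and Fmod. Aspn at 72 h was at 36.5, 26.3 and 32.8 FPKM in controls and at 6.82, 11.1 and 23.4 in co-cultures, without overlap (log2 fold change -1.34, SE 0.42, limma adjusted p = 0.736). Fmod at 72 h was at 85.4, 56.7 and 71.0 FPKM in controls and at 55.3, 40.0 and 47.0 in co-cultures, also without overlap (log2 fold change -0.57, SE 0.19, limma adjusted p = 0.745). Groups lying wholly below their controls made up 9.78% of all genes tested at 72 h. Without replicate 1 the log2 fold changes at 72 h were -0.84 for Aspn and -0.54 for Fmod, and those of Lum and Podn were -0.997 and -0.79.

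Same-numbered libraries of the standard model deviated together, so their pairs are informative. At 24 h Aspn was at 5.59, 39.1 and 29.9 FPKM in controls and at 2.57, 15.9 and 15.5 in the co-cultures of the same number, which is 0.459, 0.406 and 0.518 times the control. With the replicate number as a block, Aspn was called lower at 24 h (log2 fold change -1.06, limma adjusted p = 0.022) as the only member, while 1.22% of all genes were called and 0.56% called lower. Podn, at 0.580, 0.745 and 0.657 times its controls, had an adjusted p of 0.0562 with the block. At 72 h the block called 0 members, and 1 gene of 12863 (0.00777%). Aspn, Fmod, Podn and Prelp were lower in all 3 pairs at both times, as were 9.97% of 12522 genes tested at both. Together with Dcn, Lum and Ogn this made 7 of 8 members at 24 h (20.7% of all genes) and, without these 3, 4 of 8 at 72 h (26% of all genes). At 72 h Dcn, Lum and Ogn were lower in pairs 2 and 3 and higher in pair 1, where Ogn was at 32.8 FPKM in the control and 90.0 in the co-culture and Dcn at 145 and 309.

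The co-culture effect of the inverse model minus that of the standard model was tested for each time over all 24 libraries. No member passed at either time, by limma, by voom or without replicate 1 of the standard model. By limma without a block, 0 of all 14452 genes passed at either time. Without a block no member had an unadjusted p under 0.05, against 1.26% of all genes at 24 h and 3.47% at 72 h. The later difference, that of 72 h, was -1.05 for Lum (95% interval -3.36 to 1.27) and -0.18 for Aspn (95% interval -1.98 to 1.62). With the replicate number of each model as a block, which fits the pairing of the standard libraries, 0 members passed at either time, while 0.111% of all genes did at 72 h. The blocked intervals were narrower, at -1.98 to -0.11 for Lum, -1.19 to 0.05 for Podn, -1.49 to 1.13 for Aspn and -0.70 to 0.33 for Fmod. Lum was then the only member with an unadjusted p under 0.05 at 72 h, as had 8.05% of all genes, and its limma adjusted p was 0.574. After adjustment, none of the 4 effects called in the inverse model at 72 h was shown to differ from that of the standard model.

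Inverse controls themselves changed between 24 h and 72 h. Podn, Aspn and Ogn rose and Fmod fell, which is 3 of 8 members higher and 1 lower, while 10.2% of 13092 genes were called higher, 9.05% lower and 19.2% in either direction. Podn rose from 29.9, 28.3 and 37.9 FPKM at 24 h to 82.0, 66.5 and 70.1 at 72 h (log2 fold change 1.18, SE 0.13, limma adjusted p = 0.00193). Aspn rose from 18.7, 17.7 and 21.8 to 29.2, 31.6 and 28.5 FPKM (log2 fold change 0.61, SE 0.11, limma adjusted p = 0.00775). Ogn, a member with a short repeat domain found in bone and vessel walls, rose from 96.8, 105 and 92.2 to 174, 116 and 169 FPKM (log2 fold change 0.62, SE 0.15, limma adjusted p = 0.0231). Fmod fell from 90.7, 82.6 and 97.8 to 46.1, 55.6 and 71.1 FPKM (log2 fold change -0.66, SE 0.15, limma adjusted p = 0.0182). In these 4 transcripts the times did not overlap, which held for 22.8% of all genes in the higher and 16.9% in the lower direction. The call of Ogn was kept only without 72 h control replicate 2 (adjusted p between 0.0563 and 0.0701 without any of the others), and that of Fmod was lost without 24 h control replicate 1 (adjusted p = 0.0553) or 3 (adjusted p = 0.0577). Dcn did not pass (log2 fold change 0.51, SE 0.18, limma adjusted p = 0.0817) but was called without 72 h control replicate 2 (adjusted p = 0.00335). All 4 calls were lost with 1 spread over all 24 libraries.

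The 72 h inverse controls enter both this comparison and that with the 72 h co-culture, so the rise of Podn and Aspn over time and their lower level in co-culture rest in part on the same 3 libraries. Side by side, Podn averaged 32.1 ± 5.14 FPKM in the 24 h controls, 72.9 ± 8.10 in the 72 h controls and 31.6 ± 6.36 in the 72 h co-cultures (SD, n = 3). Aspn averaged 19.4 ± 2.14, 29.8 ± 1.65 and 10.3 ± 3.00 FPKM in the same order. Lum averaged 48.9 ± 4.31, 49.1 ± 9.35 and 16.2 ± 4.35 FPKM, and its controls differed over time by a log2 fold change of -0.01 (95% interval -0.34 to 0.32). Fmod averaged 90.3 ± 7.60, 57.6 ± 12.6 and 33.8 ± 6.58 FPKM. The adipocyte markers, summed, were at 213 to 307 FPKM in the 24 h inverse controls, below all 3 controls of 72 h. The macrophage and leukocyte markers, at 74.8 to 83.1 FPKM in the 24 h and 128 to 251 in the 72 h inverse controls, did not overlap either. Over the 12 inverse libraries r with Lyz2, a description, was 0.92 for Podn and 0.87 for Dcn and Ogn. With Lyz2 it was 0.61 for Aspn, 0.56 for Lum, 0.46 for Prelp, 0.04 for Fmod and -0.52 for Bgn. With the adipocyte marker Plin1, r over the same libraries was 0.85 for Podn, 0.82 for Lum, 0.79 for Aspn and 0.77 for Dcn. For Prelp it was 0.66, for Ogn 0.63, for Fmod 0.42 and for Bgn -0.71. The part of these markers in the change over time was not tested. Standard controls showed 0 members called between 24 h and 72 h by limma, where 0 of 12963 genes were called, and by voom. At an unadjusted p under 0.05 there were also 0 members (0.98% of all genes), with SEs of up to 1.24 for Ogn.

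Controls of the 2 models differed in 0 of 8 members at 24 h and at 72 h by limma and by voom. By limma 0 of 12903 genes were called at 24 h and 0 of 13106 at 72 h. An unadjusted p under 0.05 was found for 0 members (1.74% of all genes at 24 h and 6.18% at 72 h). At 24 h Ogn was at 96.8, 105 and 92.2 FPKM in inverse controls and at 18.8, 255 and 198 in standard controls. Lum was at 48.3, 53.5 and 44.9 FPKM against 14.5, 106 and 82.1. In both, standard replicate 1 lay far below and replicates 2 and 3 above the inverse controls. Without that library Lum (log2 fold change -0.93, adjusted p = 0.0461) and Ogn (log2 fold change -1.19, adjusted p = 0.043) were called lower in inverse controls, as were 0.18% of all 12761 genes in that fit.

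Members of the family deviated in different directions in replicate 1 of the standard model. In replicate 1 Dcn stood at 0.128 to 0.375 times the mean of replicates 2 and 3, Lum at 0.138 to 0.347, Ogn at 0.083 to 0.552 and Podn at 0.309 to 0.473, each the lowest of 3 in all 4 groups. Fmod stood at 1.27 to 1.36 times that mean and was the highest of 3 in all 4 groups. Aspn was the lowest in 3 groups and the highest, at 36.5 FPKM, in the 72 h controls. Bgn stood at 1.02 to 1.14 times the mean of replicates 2 and 3, the highest in 3 groups. Prelp had no fixed side, at 0.776 to 1.52 times that mean, the lowest in 1 group and the highest in 2. Pdgfra, a receptor of fibroblasts, was the lowest in all 4 groups (0.233 to 0.783 times the mean), whereas Acta2 was the highest. In the inverse model replicate 1 of these members was between 0.656 and 1.86 times the mean of the others.

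Across all 24 libraries Dcn, Lum, Ogn and Podn varied together, with Pearson's r between 0.69 and 0.94 on log2(FPKM + 0.5). These values are descriptions, as the libraries share groups and replicate 1 of the standard model weighs on them. Within the 12 inverse libraries r of the same 4 transcripts was between 0.41 and 0.86. Among chromosomal neighbours r over all 24 libraries was 0.86 for Dcn and Lum, 0.66 for Aspn and Ogn and 0.54 for Fmod and Prelp. Pairs on different chromosomes ranged from -0.57 for Bgn and Lum to 0.94 for Dcn and Ogn, so neighbours were not set apart by high values. Fmod and Lum had r of 0.81 in the inverse and of -0.32 in the standard libraries. Bgn had negative values with 7 of 7 members over all libraries, between -0.57 for Lum and -0.15 for Ogn.

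**Figure D3:**
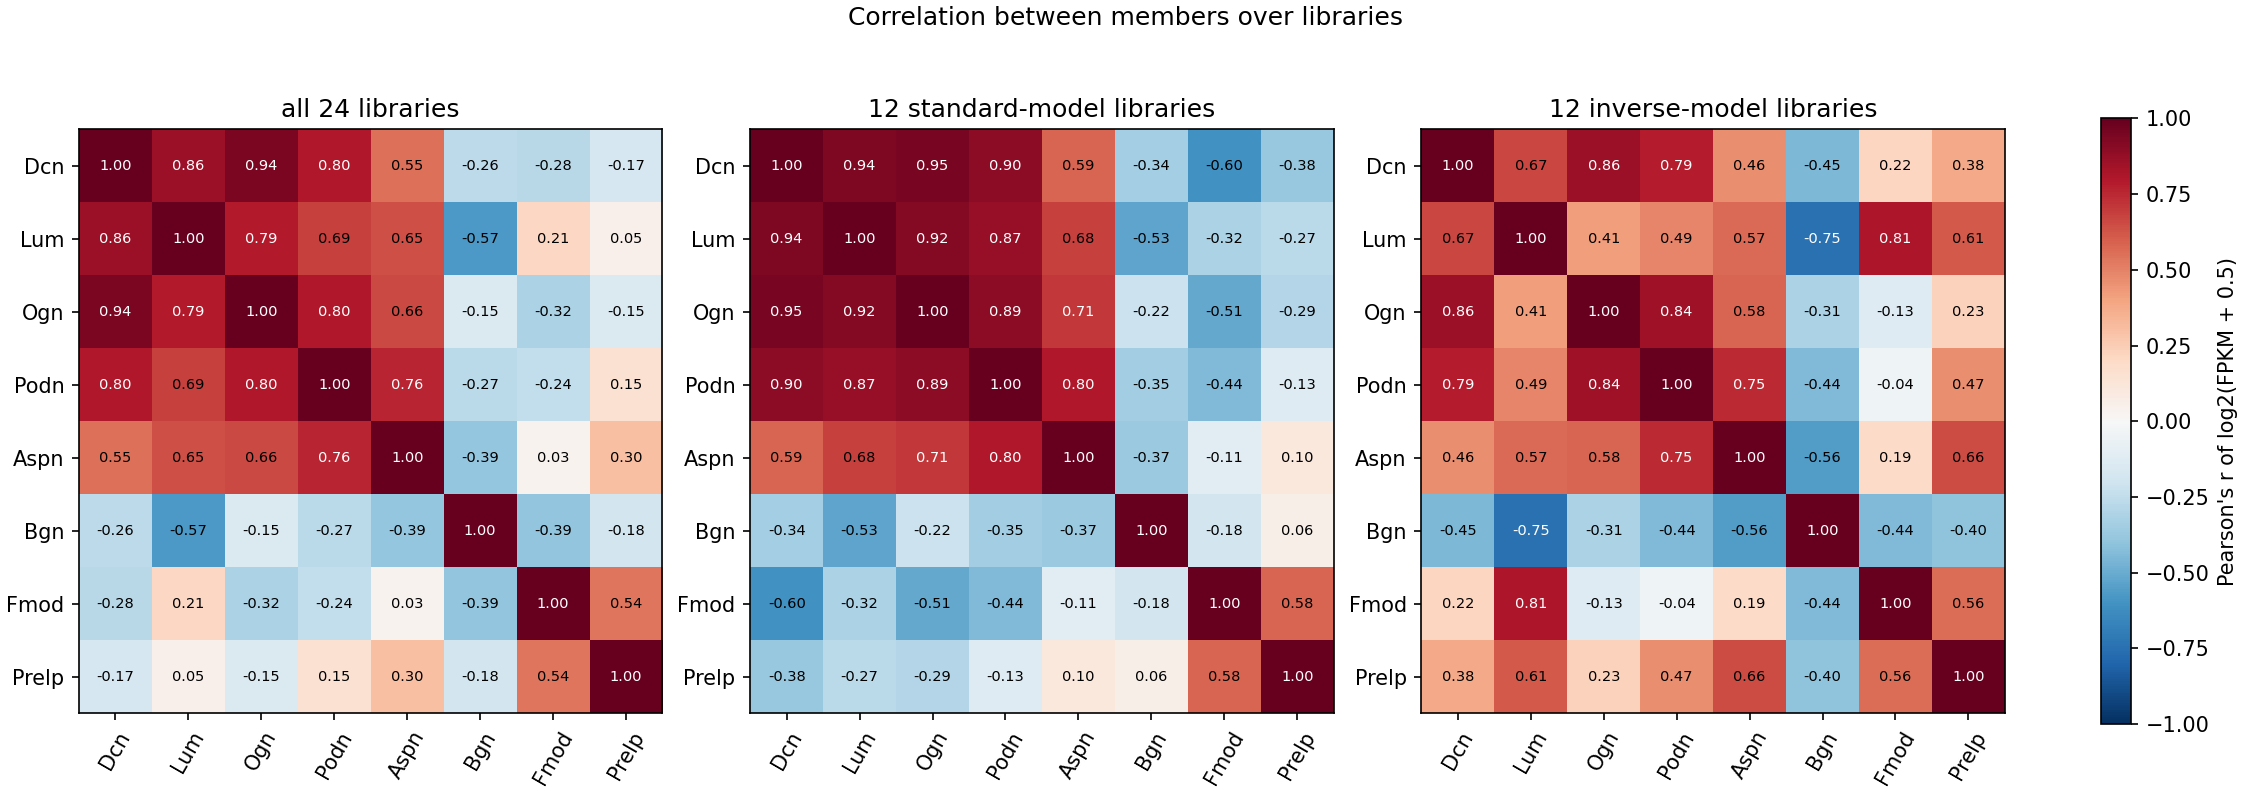
Pearson's r between members on log2(FPKM + 0.5), over all 24 libraries and over the 12 libraries of each model (colour from -1 to 1, value in each cell). Dcn, Lum, Ogn, Podn and Aspn form a block of positive values in all panels, Fmod turns from -0.32 with Lum in the standard to 0.81 in the inverse libraries, and Bgn is negative with all others in the first panel.

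Over the 24 libraries and 14452 genes, the patterns most like those of the members came from the following genes. Dcn was closest to C1qtnf7 (r = 0.98) and Lbp (r = 0.97), Lum to Astn2 (r = 0.95) and Vcam1 (r = 0.94), Ogn to Scn7a (r = 0.96) and C1s1 (r = 0.96), and Podn to Pltp (r = 0.96) and Slc27a1 (r = 0.94). Aspn was closest to Eln, the gene of elastin (r = 0.88), and to Firre (r = 0.87). Fmod was closest to Smad6, an inhibitor of BMP signalling (r = 0.92), and to Atp6v0d1 (r = 0.91), and Prelp to Ablim1 (r = 0.88) and Tinagl1 (r = 0.87). Bgn, whose level varied least, was closest to Ndufa4l2 and to P4ha1, a prolyl hydroxylase of collagen (r = 0.79 for both).

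Among 8 further genes of the family, 3 passed the filter on low values in the inverse model at 72 h. Ecm2, the neighbour of Aspn, was lower in co-culture (log2 fold change -1.30, SE 0.30, limma adjusted p = 0.0329), and Tsku, which encodes the secreted signalling inhibitor tsukushi, was higher (log2 fold change 0.68, SE 0.15, limma adjusted p = 0.0275). Podnl1, a relative of Podn, did not pass (adjusted p = 0.799). Kera and Epyc, which follow Lum on chromosome 10, did not exceed 0.0614 FPKM in any library.

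Genes that act with the family were followed in lists, given here for the 72 h inverse co-culture with the median log2 fold change of all genes at -0.16 and with 3.27% of all genes called higher and 9.57% lower. Of 10 collagens that these proteins bind, 1 was called higher and 2 lower (median 0.32). Col5a2, a chain of the collagen V that starts collagen I fibrils, rose (log2 fold change 0.57, SE 0.14, adjusted p = 0.036), whereas Col6a3 (log2 fold change -0.79, SE 0.20, adjusted p = 0.0443) and Col6a2 (log2 fold change -0.52, SE 0.11, adjusted p = 0.0281), chains of beaded collagen VI, fell. Of 14 growth factors and receptors tested, 1 was called higher and 2 lower (median 0.22). Met, the receptor of hepatocyte growth factor, was at 4.93, 3.23 and 5.58 FPKM in controls and at 0.759, 1.23 and 0.654 in co-cultures (log2 fold change -1.87, SE 0.29, adjusted p = 0.00893). Bmp4 also fell (log2 fold change -1.50, SE 0.34, adjusted p = 0.0291), and the hyaluronan receptor Cd44 rose (log2 fold change 0.68, SE 0.16, adjusted p = 0.0349).

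Enzymes that build the sugar chains are read against the same shares. None of the 6 genes that start and link the chains passed (median log2 fold change -0.24, lowest adjusted p = 0.0812), nor did any of 4 keratan sulfate enzymes (median -0.22, lowest adjusted p = 0.0712) or 2 tyrosine sulfation enzymes (median -0.11, lowest adjusted p = 0.235). Of 14 chondroitin and dermatan sulfate enzymes 1 was called higher and 1 lower (median -0.32). Chst11, which sulfates chondroitin, was at 9.07, 8.13 and 6.55 FPKM in controls and at 18.1, 16.9 and 15.9 in co-cultures (log2 fold change 1.06, SE 0.15, adjusted p = 0.00774), and Chpf, a partner of the chain polymerase, fell (log2 fold change -0.46, SE 0.10, adjusted p = 0.0222). Of 7 proteases known to cleave members, 1 was called higher and 1 lower (median 0.00). Mmp3, which cuts Dcn, was at 66.5, 40.4 and 33.7 FPKM in controls and at 164, 187 and 69.3 in co-cultures (log2 fold change 1.51, SE 0.39, adjusted p = 0.0441), and the membrane-bound Mmp14 fell (log2 fold change -0.65, SE 0.12, adjusted p = 0.0185).

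At 24 h of inverse co-culture, where 2.47% of all genes were called, the calls in these lists were 1 of 10 collagens, 2 of 14 growth factors and receptors and 2 of 7 proteases. Mmp3 rose from 15.1, 15.9 and 7.14 FPKM in controls to 68.6, 62.9 and 86.6 in co-cultures (log2 fold change 2.54, SE 0.28, adjusted p = 0.0052). The TGF-beta receptor Tgfbr1 (log2 fold change 0.67, SE 0.10, adjusted p = 0.0159) and Col3a1 (log2 fold change 0.59, SE 0.11, adjusted p = 0.0299) rose, and Tgfb3 (log2 fold change -0.94, SE 0.15, adjusted p = 0.0168) and the protease Adamts1 (log2 fold change -0.72, SE 0.11, adjusted p = 0.0168) fell. By limma without a block, no list gene was called in standard co-culture, where 0 of all 12859 (24 h) and 0 of all 12863 (72 h) genes were. The missing calls therefore do not set the lists apart from other genes, nor the standard from the inverse model. With its own test, the study reports Chst11 as raised in both models at both times. It also lists Bmp4 among the genes changed in the later standard comparison.

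**Figure D4:**
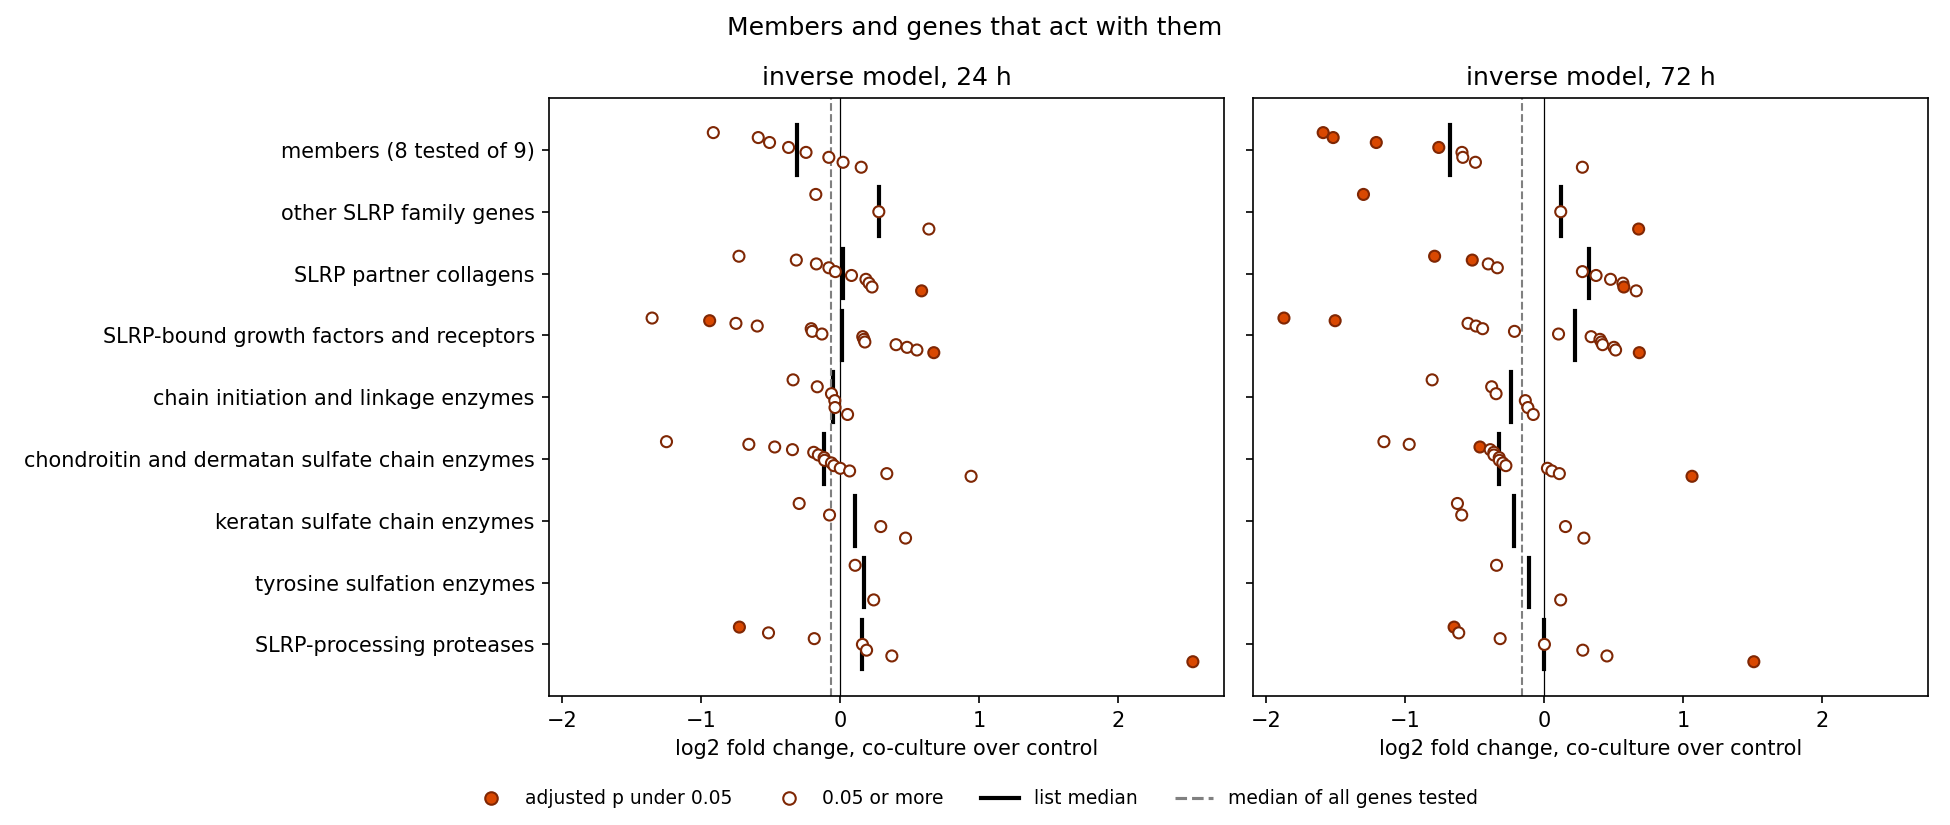
Log2 fold change of co-culture over control in the inverse model (x axis) for each tested gene of the 9 lists (y axis), at 24 h and 72 h. Filled symbols passed an adjusted p of 0.05, black bars are list medians and the dashed line is the median of all genes tested; the median of the members was -0.31 at 24 h and -0.67 at 72 h, against -0.06 and -0.16 over all genes.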

How the data were processed

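RNA of PSC was sequenced as poly(A) libraries, 3 biological replicates a group. Per the labels and the study's methods, the authors aligned reads with HISAT2 2.0.5 to GRCm38, counted fragments with featureCounts 1.5.0-p3 without strand and deposited FPKM values of 53801 genes. Members and lists were chosen with earlier results of these data known. Dividing out the mean transcript length (GENCODE M21) gave whole fragments, within 0.02, for 94.2% of genes above 0.

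Genes were tested with limma 3.58.1 (R 4.3.3, with trend, two-sided) on log2(FPKM + 0.5), each comparison on its own libraries, if 3 of these exceeded an FPKM of 1. Benjamini-Hochberg adjustment ran over all genes tested, with a limit of 0.05. An exact permutation test of 3 against 3 cannot go below 0.1 and is not given. Replicate numbers paired the libraries of the standard model (correlation of deviations 0.48 to 0.82) and not those of the inverse model. The script was tested on simulated data. Named genes were all members, the 3 widest called changes of each list and the 2 genes of highest r per member; Kera, Epyc and Podnl1 were added after their values were seen. Alternatives were a pseudocount of 1, no filter, median-ratio scaling, the replicate block, all 24 libraries in 1 model and each library left out. Voom and leaving out replicate 1 of the standard model were chosen after seeing the data.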

Additional observations from a re-analysis of the deposited data

How the results depend on the processing

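Of 1600 values of the 96 member log2 fold changes under alternatives, 1545 kept their direction, or moved by less than 1 SE, and their side of the threshold; 25 lost a call, 12 gained one and 18 reversed. At 72 h of inverse co-culture all 24 libraries in 1 model called 0 members, and leaving out a library called 3 to 5. At 24 h voom called 2 and leaving out a library 0 to 1, where 1 stood for Aspn without co-culture replicate 1. In standard co-culture at 24 h the replicate block called 1. Between inverse controls over time, 2 were called without a filter, 0 with all 24 libraries in 1 model and 2 to 5 when a library was left out, with 5 when it was 72 h control replicate 2. Between the controls of the models at 24 h, 2 were called without replicate 1 of the standard model, and 0 to 2 when a library was left out. No other count of members called moved by over 1.5 times.

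Among log2 fold changes that reversed when a library was left out, that of Dcn in standard co-culture at 72 h ranged from -0.92 to 0.64 and at 24 h of inverse co-culture from -0.20 to 0.23. Over time, Aspn ranged from -0.11 to 1.24 in standard and Lum from -0.12 to 0.15 in inverse controls. Between controls of the models, ranges were -0.76 to 0.55 for Dcn, -0.14 to 0.17 for Fmod, -0.81 to 0.54 for Aspn and -0.38 to 0.41 for Podn at 24 h, and -0.77 to 0.80 for Dcn, -0.89 to 0.56 for Lum and -0.81 to 0.74 for Ogn at 72 h. Without replicate 1 of the standard model, Aspn was at -0.22 over time in standard controls, and the values between models were -0.76 for Dcn, -0.81 for Aspn and -0.38 for Podn at 24 h and -0.77 for Dcn, -0.89 for Lum and -0.81 for Ogn at 72 h. None of these was a call, and the cause was not tested.

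Calls over all genes moved more. At 72 h of inverse co-culture 1678 became 888 without a filter, 902 with the replicate block and 897 with all 24 libraries in 1 model, and 368 without control replicate 3. At 24 h 317 became 50, 88 and 11, and 67 without control replicate 3. Between inverse controls over time 2516 became 1425 without a filter and 225 with all 24 libraries. In standard co-culture 0 became 157 (24 h) and 1 (72 h) with the block and 5 and 36 with all 24 libraries. Between the models' effects 0 became 2 (24 h) and 5 (72 h) without a filter and 16 (72 h) with the block. Between 72 h and 24 h effects 0 became 3 (standard) and 4 (inverse) without a filter, and in the inverse model 2 with a pseudocount of 1 and 14 with voom. Controls of the models differed in 3 genes at 72 h with all 24 libraries. Numbers of the inverse model did not pair its libraries (correlations -0.17 to 0.15), and with the block Fmod at 72 h was not called. Omd, with at most 31 fragments a library, was too low to test, and 3 libraries a group limit all intervals.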
